A study of Mus musculus with 217 samples.

Results

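The muscarinic acetylcholine receptors and the serotonin (5-HT) receptors are G protein-coupled receptors of the brain, apart from the ion channel formed by Htr3a and Htr3b. Here 10 of their genes were followed in RNA-Seq of a Huntington's disease (HD) mouse: the muscarinic receptors Chrm1, Chrm2, Chrm3 and Chrm4 and the serotonin receptors Htr1b, Htr1d, Htr2a, Htr2c, Htr4 and Htr6. They were chosen by name and matched through their Ensembl identifiers, and all 10 of 10 were found among the 54532 genes of both count tables. All 10 had counts in every tissue and age and passed every filter on low counts.

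Total RNA from striatum and cortex of 110 mice was sequenced in 217 libraries, 100 at 6 months and 117 at 12 months, and 107 mice gave both tissues. All mice were labelled C57BL/6 (C57BL/6J in the study's methods) and carried a lac repressor transgene (beta-actin-LacIR tg), which the beta-actin promoter drives in all tissues. The HD mice were Hdh(LacO-140Q/+), with 1 knock-in allele of huntingtin (Htt) that holds an expanded CAG repeat and lac operators, so that the repressor lowers its expression unless the inducer IPTG is given in water or chow. By the study's account this lowering is moderate, and mutant Htt stays expressed in part without IPTG. The knock-in line came from targeted ES cell clones that were bred onto C57BL/6J. The WT mice were Hdh(LacO-+/+). WT mice had no IPTG, and WT + IPTG mice had it from embryonic day 5 until sampling. LacQ140 mice had IPTG from embryonic day 5 throughout and expressed mutant Htt. LacQ140_A mice never had IPTG, so that the mutant allele was partly repressed from conception. In LacQ140_2M mice IPTG was withdrawn at 2 months, and in LacQ140_8M mice, sampled at 12 months, at 8 months. There were 5 females and 5 males per group. In 12-month striatum, WT, LacQ140 and LacQ140_8M had 4 females and so 9 libraries each. The labels put all 6-month libraries in the first batch and all 12-month libraries in the second, and only the 6-month tissue is labelled as the right side, so age and batch cannot be told apart.

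Muscarinic receptors carry the signal of acetylcholine, which in the striatum comes from cholinergic interneurons. Chrm1 and Chrm3 couple to Gq and phospholipase C, and Chrm2 and Chrm4 to Gi, which lowers cAMP. Spiny projection neurons, which make up most striatal neurons, express Chrm1 broadly and Chrm4 chiefly in the direct pathway, where it opposes dopamine D1 receptor signalling. Chrm2 is an autoreceptor of cholinergic interneurons, and not the only one. Serotonin reaches the striatum and cortex in fibres from the raphe nuclei. Htr1b and Htr1d couple to Gi and sit largely on axon terminals, where they reduce transmitter release. Htr2a and Htr2c couple to Gq, Htr2a being prominent on cortical pyramidal neurons and Htr2c in parts of the striatum and, at a high level, in the choroid plexus. Htr4 and Htr6 couple to Gs and raise cAMP.

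In GENCODE vM21 on the GRCm38 build, which the submitters' processing notes name, Chrm1 (ENSMUSG00000032773) lies at chr19:8663789-8683587, Chrm2 (ENSMUSG00000045613) at chr6:36388084-36528414, Chrm3 (ENSMUSG00000046159) at chr13:9875486-10360847 and Chrm4 (ENSMUSG00000040495) at chr2:91927249-91928688. Htr1b (ENSMUSG00000049511) lies at chr9:81628291-81633828, Htr1d (ENSMUSG00000070687) at chr4:136423524-136444398, Htr2a (ENSMUSG00000034997) at chr14:74640840-74709494 and Htr2c (ENSMUSG00000041380) at chrX:146962513-147197277. Htr4 (ENSMUSG00000026322) lies at chr18:62324204-62496577 and Htr6 (ENSMUSG00000028747) at chr4:139061108-139075570. All are protein-coding. Chrm4 is annotated there as a single coding exon of 1440 nt, so its level per exon length depends on that short model. The exons of Htr2c together cover 9328 nt, and its longest transcript has 4883 nt. Its level per exon length, and so its place among the receptors, depends on the model too. Exons of Htr1b overlap the antisense gene D430036J16Rik, and exons of Chrm2 the antisense gene 9330158H04Rik. Whether the authors' counting used strand is not given in the sources used here, so reads of these pairs may not have been kept apart.

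Library totals lay between 33292057 and 68038831 counts. Values are CPM, each count as a share of its library total, scaled by TMM factors within a tissue and age. Htt counts pool the mutant and the normal allele. In striatum at 12 months Htt was 134 ± 12.0 CPM (SD, n = 9) in WT, 146 ± 11.2 CPM (SD, n = 10) in WT + IPTG, 111 ± 10.9 CPM (SD, n = 9) in LacQ140, 93.4 ± 15.9 CPM (SD, n = 10) in LacQ140_A, 100.3 ± 11.1 CPM (SD, n = 10) in LacQ140_2M and 111 ± 8.15 CPM (SD, n = 9) in LacQ140_8M. All the lowering arms overlapped there with LacQ140 in total Htt. Against LacQ140 the log2 fold change was -0.25 (adjusted p = 0.049) in LacQ140_A, -0.15 (adjusted p = 0.56) in LacQ140_2M and -0.0012 in LacQ140_8M, none of them called. This pooled count thus does not check the late withdrawal in striatum. In 12-month cortex Htt was 23.9 ± 4.18 CPM (SD, n = 10) in LacQ140 and 18.0 ± 4.01 CPM (SD, n = 10) in LacQ140_8M, a log2 fold change of -0.41 ± 0.13 (adjusted p = 1.0), which was not called. The spiny neuron gene Drd1 separated the tissues: it was at 120.8 CPM or more in every striatal library and at 23.4 CPM or less in every cortical library, while the cortical gene Slc17a7 reached 286 CPM in 1 LacQ140 striatal library at 12 months, within the range of 265 to 1006 CPM of the 12-month cortical libraries. In the rest of the groups the highest striatal library was at 103.4 CPM. The slope of log2 CPM on log2 transcript length lay between 0.17 and 0.589 in the 6-month libraries and the 12-month striatum, but between -0.296 and 0.125 in the 12-month cortex, which stands apart. The 13 choroid plexus markers summed to between 5.02 and 2158 CPM, and 31 libraries, 25 of them cortical, exceeded 127 CPM.

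Sequence was read for the receptors because several of them moved together in LacQ140 striatum, as described further on. The 250 bases before the RefSeq start site (GRCm38.p6) were read for the 3 short motifs TGACG (the core of the cAMP response element), GGGCGG (the GC box of Sp factors) and TATAAA, each on both strands. RefSeq promoters were used for 8 of the 10 genes, not for Chrm1 and Htr4, and Htr1d and Htr6 had 2 start sites each. Neither TGACG nor TATAAA was in any of these windows, and 17.8% and 12.4% of all 32851 RefSeq promoters held them. GGGCGG was in 32.7% of all promoters. The 4 windows shown belong to 4 of the 6 receptors called in LacQ140 striatum at 12 months, those other than Chrm1 and Htr4, in lower case, with capitals where GGGCGG or its complement CCGCCC stands. Chrm4 had 3 matches, of which a pair overlap, Htr2a had 1 match, and Htr1b and Htr2c had none.
Chrm4, chr2:91921939-91922188, plus strand: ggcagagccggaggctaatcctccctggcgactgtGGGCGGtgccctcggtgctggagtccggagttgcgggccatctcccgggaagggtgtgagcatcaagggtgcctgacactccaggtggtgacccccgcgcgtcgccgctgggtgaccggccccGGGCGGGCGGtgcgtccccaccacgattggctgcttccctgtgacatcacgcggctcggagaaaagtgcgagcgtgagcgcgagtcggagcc
Htr1b, chr9:81633833-81634082, minus strand: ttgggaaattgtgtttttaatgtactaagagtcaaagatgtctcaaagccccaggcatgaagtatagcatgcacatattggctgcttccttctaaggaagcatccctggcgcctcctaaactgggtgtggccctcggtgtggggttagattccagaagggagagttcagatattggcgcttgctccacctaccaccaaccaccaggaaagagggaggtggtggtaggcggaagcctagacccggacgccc
Htr2a, chr14:74640624-74640873, plus strand: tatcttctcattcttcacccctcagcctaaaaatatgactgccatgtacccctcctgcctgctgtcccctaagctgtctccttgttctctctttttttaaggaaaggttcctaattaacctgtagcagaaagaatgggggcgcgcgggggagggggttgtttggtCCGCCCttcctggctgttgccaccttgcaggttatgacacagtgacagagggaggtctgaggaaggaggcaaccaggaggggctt
Htr2c, chrX:146962263-146962512, plus strand: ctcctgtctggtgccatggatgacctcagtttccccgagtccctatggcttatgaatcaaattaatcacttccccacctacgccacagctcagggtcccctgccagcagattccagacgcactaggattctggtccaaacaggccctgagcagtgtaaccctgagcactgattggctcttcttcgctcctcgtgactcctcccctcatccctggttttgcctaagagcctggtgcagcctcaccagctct
The Chrm4 window held 26 CpG dinucleotides and those of Htr1b, Htr2a and Htr2c 6, 4 and 5. Chrm2, Htr1d and Htr6 also held GGGCGG in at least 1 window, and Chrm3 did not. The Chrm4 window lies upstream of the single exon that GENCODE vM21 gives the gene. A match is a run of letters and was not tested as a binding site.

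Striatum and cortex of the WT + IPTG mice were compared first, in a fit with the mouse as a block, to place each receptor. Per kilobase of exon, Chrm4 (33.8 ± 6.11 CPM per kb, SD, n = 10), Chrm1 (28.6 ± 3.21) and Htr1b (19.2 ± 4.29) were the highest of the 10 receptors in 12-month striatum. Htr2a (4.57 ± 0.863), Htr2c (4.24 ± 0.513) and Htr1d (4.11 ± 0.769) came next, and their SDs overlapped. Htr6 (2.40 ± 0.332), Chrm2 (1.88 ± 0.39) and Chrm3 (1.63 ± 0.205) followed, with neighbours overlapping, and Htr4 was lowest at 0.794 ± 0.262. The SDs of Chrm4 and Chrm1 also overlapped. At 6 months the same 3 receptors led, Chrm4 at 24.7 ± 4.42, Chrm1 at 19.8 ± 2.87 and Htr1b at 14.0 ± 2.69 CPM per kb. In 6-month cortex the order was different, with Chrm1 at 21.4 ± 2.65, Chrm4 at 7.46 ± 1.23, Chrm3 at 7.16 ± 0.854 and Htr2a at 4.04 ± 0.299 CPM per kb, ahead of Htr2c at 2.71 ± 0.551. Htr1d and Htr4 were the lowest in cortex, at 0.352 ± 0.167 and 0.285 ± 0.0799 CPM per kb. In 12-month cortex Chrm1 led at 9.89 ± 1.75, followed by Chrm3 at 4.56 ± 0.37, Htr2a at 3.997 ± 0.835 and Chrm4 at 3.83 ± 1.12 CPM per kb, which overlapped from each to the next.

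**Figure D1:**
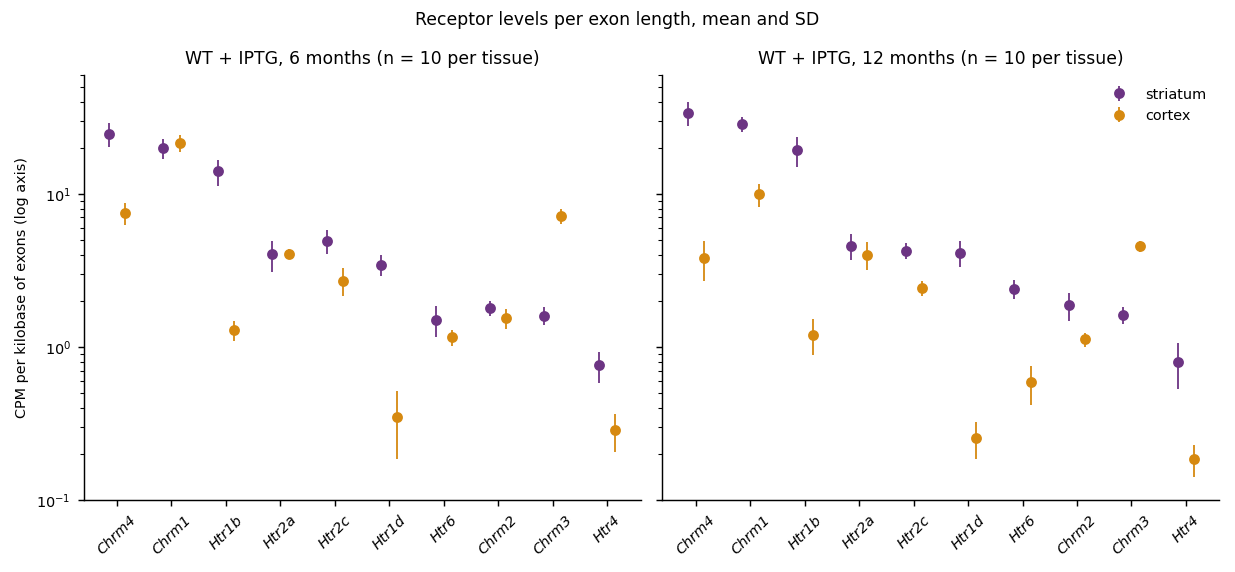
Level of each receptor in WT + IPTG mice in CPM per kilobase of exon (log axis), with striatum in purple and cortex in orange; points are means and lines SDs over 10 mice. Chrm4, Chrm1 and Htr1b stand highest in striatum, and Chrm3 is the receptor that is higher in cortex at both ages.

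At 6 months 7 of the 10 receptors differed between the tissues (called at an adjusted p under 0.05 and a change of at least 1.2-fold in either direction, which is a rise of 20% or a fall of 16.7%), against 27.5% of all genes tested. The Gi-coupled pair Htr1b and Htr1d had the largest differences of the 10, with log2 fold changes (striatum over cortex, ± SE here and in all that follow) of 3.41 ± 0.10 (adjusted p = 2.7e-36) and 3.30 ± 0.12 (adjusted p = 1.3e-32). Htr1b was 66.1 ± 12.7 CPM (SD, n = 10) in striatum and 6.09 ± 0.94 CPM (SD, n = 10) in cortex. Chrm4 was higher in striatum by 1.70 ± 0.08 (adjusted p = 3.8e-28), Htr4 by 1.38 ± 0.13 (adjusted p = 7.0e-14), Htr2c by 0.85 ± 0.13 (adjusted p = 1.3e-07) and Htr6 by 0.36 ± 0.12 (adjusted p = 0.015). Without the libraries above 127 CPM of choroid plexus markers Htr6 was at 0.32 (adjusted p = 0.11) and not called. Chrm3 went the other way, at 9.99 ± 1.35 CPM (SD, n = 10) in striatum and 44.8 ± 5.34 CPM (SD, n = 10) in cortex, a log2 fold change of -2.18 ± 0.09 (adjusted p = 1.0e-30). Chrm1, Chrm2 and Htr2a were not called, at -0.13, 0.21 and -0.05. At 12 months 9 of 10 were called, against 45.4% of all genes. Chrm1 was among them at 1.38 ± 0.09 (adjusted p = 2.5e-21), with 64.2 ± 11.4 CPM (SD, n = 10) in 12-month cortex against 139 ± 17.2 CPM (SD, n = 10) in 6-month cortex. Within the groups of the 12-month cortex, Chrm1 correlated with the transcript-length slope of the library at r = 0.91 and Chrm4 at r = 0.739 over 60 libraries, a description of libraries that share preparation and depth. The slopes of the 2 tissues did not overlap at 12 months, so the tissue difference at that age cannot be told apart from that of the libraries. Htr1b, Htr1d, Chrm4, Htr4, Htr2c, Htr6 and Chrm3 were called in the same direction at both ages.

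LacQ140 and WT + IPTG mice both had IPTG throughout and differ by the knock-in allele, and this comparison is named the effect of mutant Htt. The knock-in allele stands in place of a normal one. Total Htt in striatum had log2 fold changes of -0.12 ± 0.07 (adjusted p = 0.28) at 6 months and -0.40 ± 0.07 (adjusted p = 9.0e-06) at 12 months. Mutant Htt and the loss of a normal allele cannot be told apart here. In striatum Htr2c rose and Htr1b fell at both ages, and at 12 months Chrm1, Chrm4, Htr2a and Htr4 were lower as well. At 6 months 2 of 10 receptors were called, against 7.93% of all genes tested, and at 12 months 6 of 10, 1 higher and 5 lower, against 9.44%. Those shares include genes with as little as 1 count. Under the low-count filter filterByExpr, 2986 of 18841 genes were called at 6 months and 3375 of 18395 at 12 months. The 2 of 10 at 6 months is near that share. The median log2 fold change of the 10 was -0.07 at 6 months and -0.29 at 12 months, and that of all genes above 1 CPM was -0.01 and 0.01. All of these calls held when any 1 LacQ140 or WT + IPTG library was left out, the LacQ140 library high in Slc17a7 among them. In whole striatum, fewer cells of a type and less RNA per cell cannot be told apart.

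**Figure D2:**
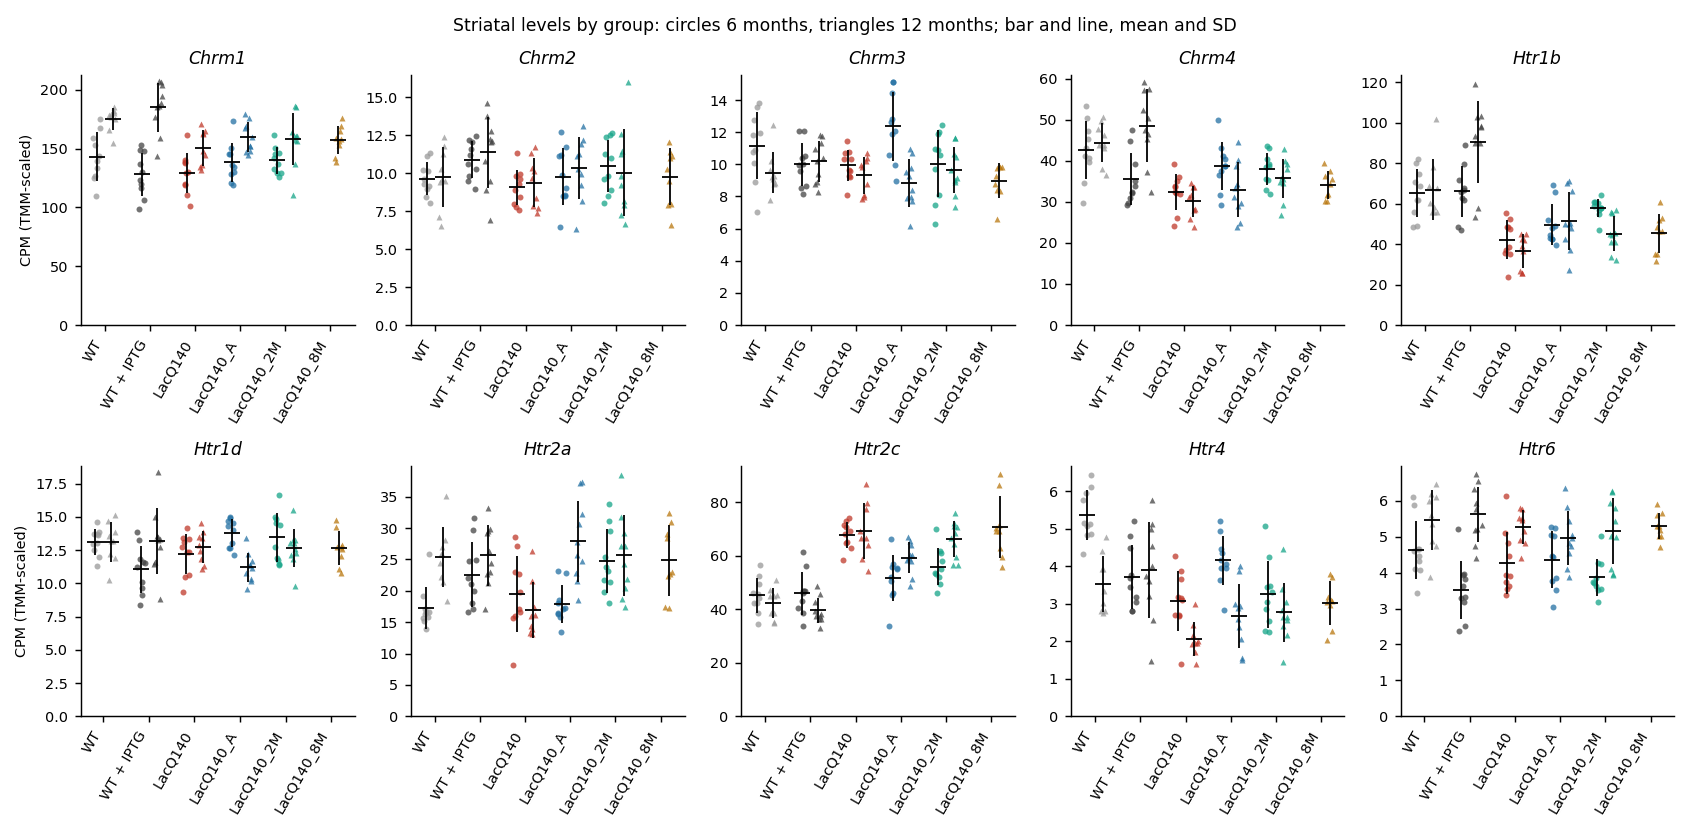
TMM-scaled CPM of each receptor in every striatal library by group; circles are 6 months and triangles 12 months, with the mean (bar) and SD (line), n = 9 or 10 per group. Htr2c is higher in all HD arms at 12 months, and at 12 months the means of Htr1b, Chrm4, Htr2a and Htr4 are lowest in LacQ140 mice.

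Htr1b, the Gi-coupled receptor of axon terminals, had the largest fall of the 10 receptors. At 6 months WT + IPTG libraries had lowest, median and highest values of 46.8, 66.3 and 88.9 CPM, and LacQ140 libraries 23.7, 43.01 and 55.2 CPM. All 10 LacQ140 libraries lay below the WT + IPTG median, although the groups overlapped, and the log2 fold change was -0.65 ± 0.11 (adjusted p = 1.5e-05). At 12 months the values were 53.5, 95.8 and 119 CPM in WT + IPTG and 25.9, 39.05 and 45.2 CPM in LacQ140. The groups no longer overlapped, and Htr1b fell by 59.8%, a log2 fold change of -1.31 ± 0.14 (adjusted p = 3.5e-11). The overlapping antisense gene D430036J16Rik, at 9.24 ± 2.02 CPM (SD, n = 10) in WT + IPTG, was also lower, with a log2 fold change of -0.59 ± 0.10 (adjusted p = 1.2e-05). Its level was well under that of Htr1b, and its part in the Htr1b result was not tested.

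The other Gi-coupled serotonin receptor, Htr1d, was not called at either age, with log2 fold changes of 0.14 ± 0.08 (adjusted p = 0.28) at 6 months and -0.05 ± 0.08 (adjusted p = 0.79) at 12 months. Its 95% interval at 12 months ran from -0.21 to 0.11, which does not reach the change of Htr1b.

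Htr2c, a Gq-coupled receptor that is X-linked and known for RNA editing, was the receptor that rose. At 6 months its lowest, median and highest values were 33.6, 46.4 and 61.4 CPM in WT + IPTG and 58.5, 68.6 and 74.2 CPM in LacQ140. Of the 10 LacQ140 libraries 9 lay above the highest WT + IPTG library, and the log2 fold change was 0.56 ± 0.09 (adjusted p = 2.0e-06). At 12 months the values were 33.0, 37.9 and 48.5 CPM against 54.2, 66.7 and 86.7 CPM, with no overlap. The level was 75.1% higher, a log2 fold change of 0.81 ± 0.08 (adjusted p = 1.5e-12). Choroid plexus cells also express Htr2c, and the summed level of their 13 markers had lowest, median and highest values of 28.7, 47.5 and 745 CPM in WT + IPTG and 33.4, 48.3 and 96.6 CPM in LacQ140 at 6 months. At 12 months these were 28.4, 47.7 and 450.2 CPM and 29.7, 36.2 and 49.5 CPM. None of the 13 was called higher, and 2 and 5 were called lower at 6 and 12 months. Without the libraries above 127 CPM the log2 fold changes of Htr2c were 0.56 and 0.82, and both were called.

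**Figure D3:**
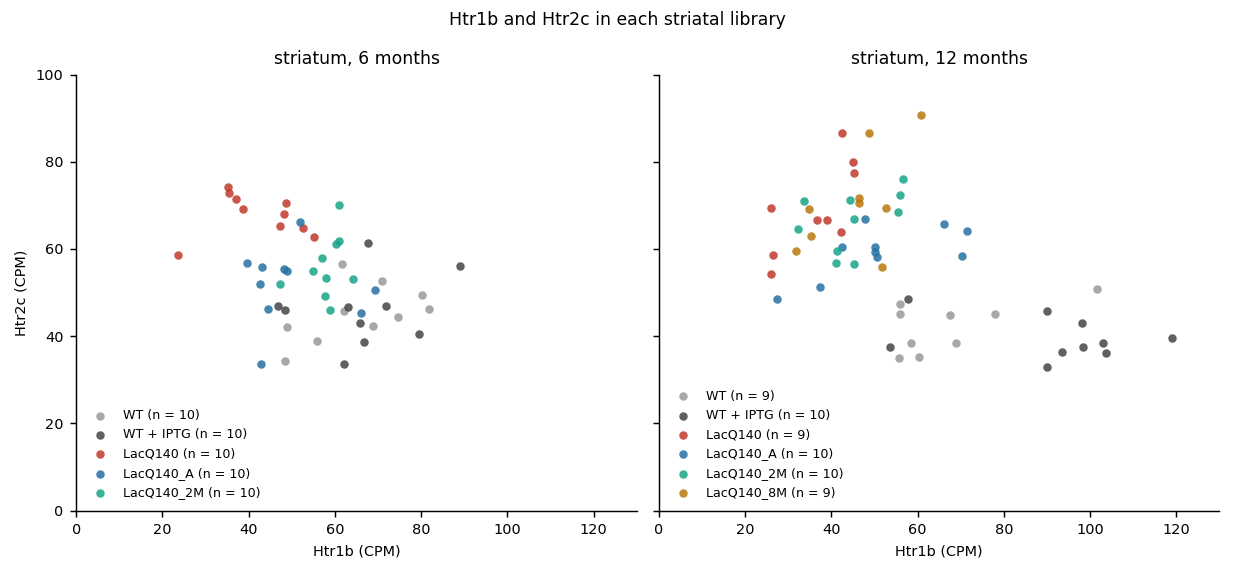
Htr1b (x axis, CPM) and Htr2c (y axis, CPM) in each striatal library at 6 months (left) and 12 months (right), coloured by group. At 12 months the libraries of LacQ140 and the lowering arms lie at high Htr2c (48.6 CPM and above) and the WT libraries of both kinds at 50.9 CPM or below, while the mean of Htr1b is highest in WT + IPTG.

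Htr2a, the other Gq-coupled serotonin receptor, moved the opposite way to Htr2c. At 12 months its lowest, median and highest values were 17.1, 25.4 and 33.2 CPM in WT + IPTG and 13.1, 15.9 and 26.4 CPM in LacQ140. Of 9 LacQ140 libraries 6 lay below the lowest WT + IPTG library and 1 above the median, and the log2 fold change was -0.60 ± 0.14 (adjusted p = 7.1e-04). At 6 months the groups overlapped widely and the value of -0.21 ± 0.13 (adjusted p = 0.39) was not called.

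Of the Gs-coupled receptors, Htr4 had a fall of 47.2% at 12 months and Htr6 was not called. Htr4 was a low-level gene, with lowest, median and highest values of 1.48, 3.87 and 5.77 CPM in WT + IPTG and 1.39, 1.96 and 2.99 CPM in LacQ140. All 9 LacQ140 libraries were below the WT + IPTG median, 8 of 10 WT + IPTG libraries were above the highest LacQ140 library, and the log2 fold change was -0.92 ± 0.17 (adjusted p = 3.2e-05). At 6 months it was -0.27 ± 0.13 (adjusted p = 0.2). Htr6 stood at 0.26 ± 0.11 (adjusted p = 0.13) at 6 months and -0.10 ± 0.09 (adjusted p = 0.62) at 12 months.

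Among the muscarinic receptors, Chrm4, the Gi-coupled receptor of direct-pathway neurons, had the largest difference. Its lowest, median and highest values at 12 months were 32.3, 49.02 and 59.2 CPM in WT + IPTG and 23.9, 31.2 and 34.7 CPM in LacQ140. Of 10 WT + IPTG libraries 9 lay above the highest LacQ140 library, and Chrm4 fell by 38.1%, a log2 fold change of -0.69 ± 0.09 (adjusted p = 2.8e-08). At 6 months the value was -0.13 ± 0.09 (adjusted p = 0.44), which was not called. Chrm1, the Gq-coupled receptor with the most counts of the 10, fell less. It had lowest, median and highest values of 144, 188 and 208 CPM in WT + IPTG and 132, 148 and 171 CPM in LacQ140 at 12 months, and a log2 fold change of -0.30 ± 0.06 (adjusted p = 3.5e-04). All 9 LacQ140 libraries lay below the WT + IPTG median. At 6 months Chrm1 was at 0.01 ± 0.08 (adjusted p = 1.0).

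Chrm2 and Chrm3 were not called in striatum. Chrm2 was 10.9 ± 1.22 CPM (SD, n = 10) in WT + IPTG and 9.07 ± 1.17 CPM (SD, n = 10) in LacQ140 at 6 months, and its log2 fold change of -0.26 ± 0.09 (adjusted p = 0.049) passed the p threshold but, at a fall of 16.4%, not the 1.2-fold bound. DESeq2 called it, at -0.26. At 12 months it was -0.28 ± 0.13 (adjusted p = 0.18). Chrm3 was at -0.01 ± 0.10 (adjusted p = 1.0) and -0.13 ± 0.09 (adjusted p = 0.45). The antisense gene 9330158H04Rik, which overlaps Chrm2, was at 0.535 ± 0.0714 CPM (SD, n = 10) in WT + IPTG.

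**Figure D4:**
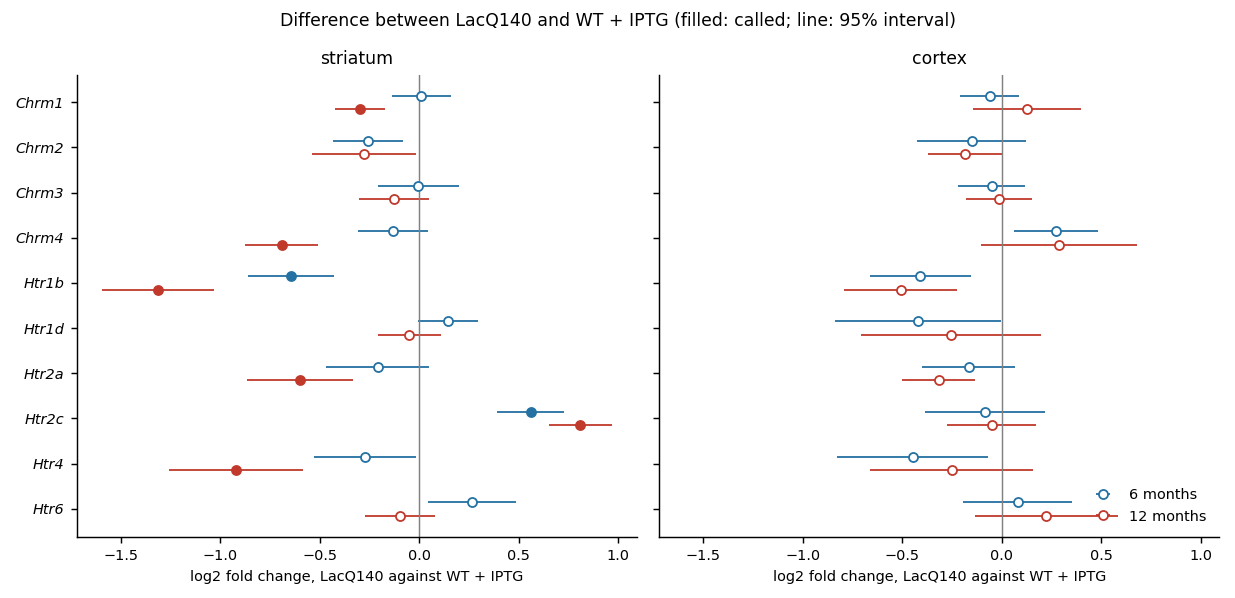
Log2 fold change of each receptor in LacQ140 against WT + IPTG mice (x axis) in striatum (left) and cortex (right), 6 months in blue and 12 months in red, with 95% intervals; filled points are called. In striatum Htr2c lies to the right of 0 and Htr1b to the left at both ages, and in cortex no point is filled.

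In cortex the same comparison called none of the 10 receptors with edgeR at either age, against 0.881% of all genes at 6 months and 0.0899% at 12 months. At an unadjusted p under 0.05, 3 receptors passed at 6 months and 2 at 12 months, against 9.94% and 8.68% of all genes, and DESeq2 called none. Htr1b was 6.09 ± 0.94 CPM (SD, n = 10) in WT + IPTG and 4.59 ± 0.889 CPM (SD, n = 10) in LacQ140 at 6 months, a log2 fold change of -0.41 ± 0.13 (adjusted p = 0.12). At 12 months it was 5.68 ± 1.51 CPM (SD, n = 10) and 3.98 ± 0.902 CPM (SD, n = 10), at -0.51 ± 0.14 (adjusted p = 0.18), and all 10 LacQ140 libraries lay below the WT + IPTG median. In a fit of the compared groups alone Htr1b was called in cortex at both ages, with log2 fold changes of -0.40 and -0.51. That fit called 524 of 33581 genes at 6 months and 441 of 31345 at 12 months, against 317 and 31 genes in the fit of all groups. Htr2c, the receptor that rose in striatum, was at -0.08 ± 0.15 (adjusted p = 0.94) and -0.05 ± 0.11 (adjusted p = 0.96) in cortex. Chrm4, which fell in striatum, was at 0.27 ± 0.11 (adjusted p = 0.28) and 0.29 ± 0.20 (adjusted p = 0.72). In 12-month cortex it was at 0.08 with the transcript-length slope as a covariate and at 0.01 without the libraries above 127 CPM of choroid plexus markers, and Htr1b was at -0.43 and -0.71 in the same fits, none called.

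Over all 11 combinations of group and age, the mean of Htr2c ran from 39.6 to 70.7 CPM in striatum and from 19.9 to 31.6 CPM in cortex, and that of Htr1b from 36.6 to 90.7 and from 3.82 to 6.89 CPM. The means of Chrm4 ran from 30.1 to 48.6 CPM in striatum and from 5.06 to 13.4 CPM in cortex, and those of Htr2a from 16.9 to 27.9 and from 18.0 to 25.4 CPM. For the receptors not called in LacQ140 striatum the striatal means ran, for Chrm2 from 9.07 to 11.4, Chrm3 from 8.84 to 12.4, Htr1d from 11.04 to 13.8 and Htr6 from 3.53 to 5.62 CPM. In cortex Htr1d and Htr4 stayed near 1 CPM, from 0.684 to 1.21 and from 0.725 to 1.47 CPM, which limits what could be detected there.

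The difference between the tissues was tested directly, as the effect in striatum minus that in cortex. At 12 months it was called for Chrm4 at -0.94 ± 0.18 (adjusted p = 3.6e-04), for Htr1b at -0.82 ± 0.15 (adjusted p = 2.2e-04) and for Htr2c at 0.82 ± 0.14 (adjusted p = 3.8e-05), 3 of 10 receptors against 2.8% of all genes. At 6 months Chrm4 alone of the 10 was called, at -0.41 ± 0.10 (adjusted p = 0.027), against 1.12% of all genes, and it was not called in a fit without the mouse. Htr2c at 6 months was at 0.64 ± 0.18 (adjusted p = 0.062). With the transcript-length slope as a covariate in each tissue, the 12-month differences were -0.76 (adjusted p = 3.3e-05) for Chrm4, -0.85 (adjusted p = 3.7e-06) for Htr1b and 0.76 (adjusted p = 1.3e-05) for Htr2c, all called. Chrm1 at 12 months, at -0.28 (adjusted p = 0.047), and Htr2c at 6 months, at 0.57 (adjusted p = 0.034), were then called too. Leaving out the libraries above 127 CPM of choroid plexus markers left 4 LacQ140 and 5 WT + IPTG mice with both tissues at 12 months. Of the 3 receptors Htr2c was still called, at 0.94 (adjusted p = 0.0061), while Chrm4 at -0.89 (adjusted p = 0.067) and Htr1b at -0.73 (adjusted p = 0.19) were not. At 6 months, with 9 and 7 mice, Chrm4 was at -0.45 (adjusted p = 0.1) and not called. Both settings were chosen after the data were seen. For Htr4, Htr2a and Chrm1, which fell in striatum at 12 months, the differences of -0.63 ± 0.27 (adjusted p = 0.3), -0.36 ± 0.15 (adjusted p = 0.28) and -0.41 ± 0.13 (adjusted p = 0.091) were not called in the fit without these settings, and the falls of Htr4 and Htr2a were not shown to differ between the tissues in any fit.

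The lowering arms ask whether partly repressing mutant Htt from conception, from 2 months or from 8 months moved the receptors. LacQ140 mice had IPTG until sampling and the lowering arms did not. Lower mutant Htt and the absence of IPTG therefore cannot be told apart in the comparisons with LacQ140. Each arm was compared with LacQ140 mice, and, in striatum, also with WT mice, since neither the lowering arms nor WT had IPTG at sampling. LacQ140_2M and LacQ140_8M had earlier IPTG, which WT mice never had. The effect of mutant Htt above used WT + IPTG, so its values and those against WT have different baselines. The comparisons with LacQ140 share those libraries with the effect of mutant Htt above, and the comparisons with WT share the WT libraries among themselves.

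At 6 months Htr2c in striatum had lowest, median and highest values of 33.6, 53.5 and 66.2 CPM in LacQ140_A, lower than in LacQ140 with a log2 fold change of -0.39 ± 0.09 (adjusted p = 0.0031). In LacQ140_2M they were 45.9, 54.2 and 70.1 CPM, at -0.28 ± 0.09 (adjusted p = 0.089), which was not called. Against WT, at 45.2 ± 6.46 CPM (SD, n = 10), the log2 fold change was 0.19 ± 0.09 (adjusted p = 0.31) in LacQ140_A and 0.31 ± 0.09 (adjusted p = 0.053) in LacQ140_2M, and neither was called. The call in LacQ140_2M turned on the setting, since 4 of 10 alternatives called it, with log2 fold changes from 0.27 to 0.31 and adjusted p from 0.038 to 0.12 over the alternatives. Htr1b was 49.7 ± 10.2 CPM (SD, n = 10) in LacQ140_A and 57.97 ± 4.56 CPM (SD, n = 10) in LacQ140_2M, against 42.2 ± 9.77 CPM (SD, n = 10) in LacQ140. It was called higher in LacQ140_2M, by 0.46 ± 0.11 (adjusted p = 0.013), and not in LacQ140_A, at 0.23 ± 0.11 (adjusted p = 0.36). Thus 1 of 10 receptors was called against LacQ140 in each arm at 6 months, with 1.88% of all genes called in LacQ140_A and 1.26% in LacQ140_2M.

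At 12 months Htr2c was higher than in WT in every lowering arm. Its lowest, median and highest values were 48.6, 59.9 and 66.97 CPM in LacQ140_A, 56.6, 67.6 and 76.1 CPM in LacQ140_2M and 55.96, 69.4 and 90.8 CPM in LacQ140_8M. WT libraries ran from 34.95 to 50.9 CPM, so LacQ140_2M and LacQ140_8M did not overlap with WT and LacQ140_A did. Against WT the log2 fold changes were 0.49 ± 0.08 (adjusted p = 1.2e-05) in LacQ140_A, 0.65 ± 0.08 (adjusted p = 9.6e-09) in LacQ140_2M and 0.74 ± 0.08 (adjusted p = 1.6e-10) in LacQ140_8M. Against LacQ140 the values were -0.22 ± 0.08 (adjusted p = 0.2), -0.06 ± 0.08 (adjusted p = 0.86) and 0.03 ± 0.08 (adjusted p = 1.0), none of them called.

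Chrm4 was lower than WT in all 3 arms at 12 months. It was 44.4 ± 4.82 CPM (SD, n = 9) in WT, 33.0 ± 6.66 CPM (SD, n = 10) in LacQ140_A, 35.7 ± 4.80 CPM (SD, n = 10) in LacQ140_2M and 34.1 ± 3.38 CPM (SD, n = 9) in LacQ140_8M. The log2 fold changes were -0.43 ± 0.09 (adjusted p = 0.0011) in LacQ140_A, -0.31 ± 0.09 (adjusted p = 0.025) in LacQ140_2M and -0.38 ± 0.10 (adjusted p = 0.0032) in LacQ140_8M. Htr1b was 66.96 ± 15.1 CPM (SD, n = 9) in WT, 45.1 ± 8.72 CPM (SD, n = 10) in LacQ140_2M and 45.4 ± 9.66 CPM (SD, n = 9) in LacQ140_8M. It was lower than WT in both arms, with log2 fold changes of -0.57 ± 0.14 (adjusted p = 0.0044) and -0.56 ± 0.14 (adjusted p = 0.0041). In LacQ140_A Htr1b was 51.4 ± 14.3 CPM (SD, n = 10), at -0.38 ± 0.14 (adjusted p = 0.12), which was not called. Against LacQ140, Htr1b was at 0.49 ± 0.14 (adjusted p = 0.064) in LacQ140_A, 0.30 ± 0.14 (adjusted p = 0.54) in LacQ140_2M and 0.31 ± 0.14 (adjusted p = 0.86) in LacQ140_8M, none of them called. Counting over the 10 receptors, 2 were called against WT in LacQ140_A, 3 in LacQ140_2M and 3 in LacQ140_8M, with 3.15%, 4.09% and 7.77% of all genes called.

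**Figure D5:**
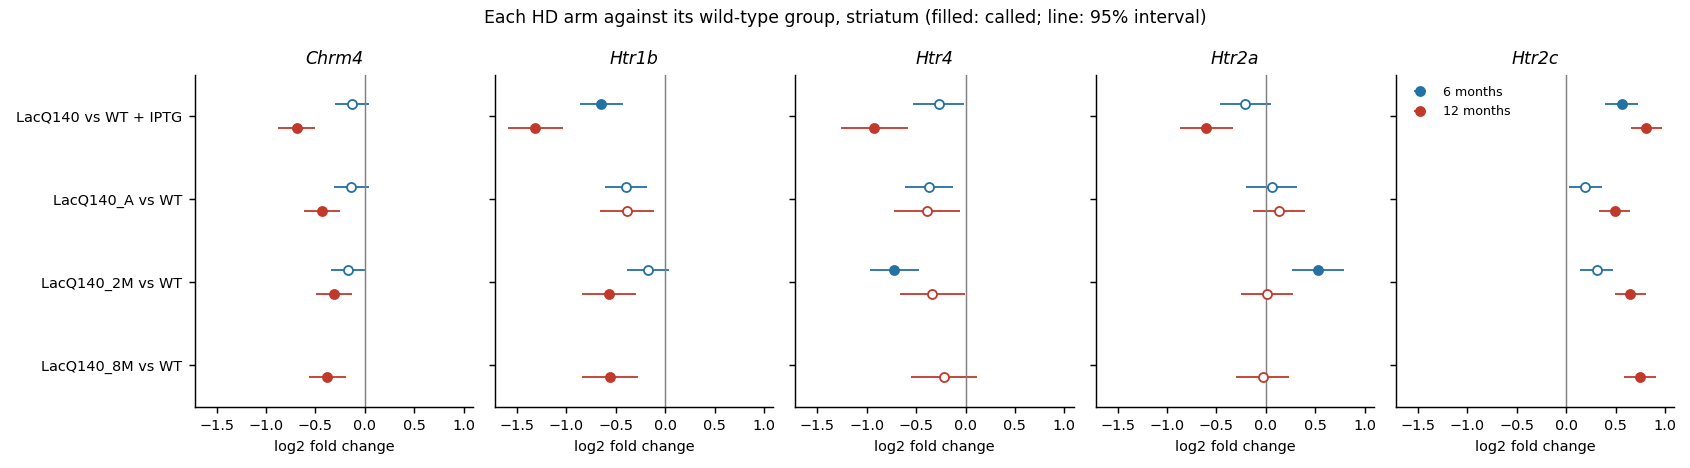
Log2 fold change in striatum (x axis) of 5 receptors in each HD arm, 6 months in blue and 12 months in red, with 95% intervals. Filled points are called. LacQ140 is set against WT + IPTG and the lowering arms against WT, so they do not share a baseline. Htr1b at 12 months was 90.7 CPM in WT + IPTG and 66.96 CPM in WT. Htr4 at 6 months was 3.72 and 5.36 CPM in the same groups. Htr2c is to the right of 0 and Chrm4 to the left in every arm at 12 months, while Htr2a at 12 months lies near 0 in the 3 lowering arms.

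Htr2a was the receptor called between lowering arms and LacQ140 at 12 months. Its lowest, median and highest values were 18.6, 26.8 and 37.3 CPM in LacQ140_A and 17.4, 25.7 and 38.4 CPM in LacQ140_2M, which overlapped with LacQ140. It was higher than in LacQ140 by 0.72 ± 0.14 (adjusted p = 5.3e-04) and 0.60 ± 0.14 (adjusted p = 0.0093), the 1 receptor of 10 called in each of these arms, against 0.91% and 0.608% of all genes. In LacQ140_8M it was 24.9 ± 5.61 CPM (SD, n = 9). The log2 fold change of 0.56 ± 0.14 (adjusted p = 0.39) against LacQ140 was not called. None of the 10 was called in LacQ140_8M against LacQ140, where 0.00565% of all genes were called by edgeR, 3 receptors and 5.13% of all genes passed at an unadjusted p under 0.05, and DESeq2 called none of the 10. Against WT, Htr2a was at 0.13, 0.01 and -0.03 in the 3 arms, none called. The 95% interval in LacQ140_8M, from -0.30 to 0.24, did not reach the fall seen in LacQ140 against WT + IPTG.

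Htr4 was lower in LacQ140_2M than in WT at 6 months, with a log2 fold change of -0.72 ± 0.13 (adjusted p = 3.2e-04), while Htr2a was higher there, by 0.53 ± 0.13 (adjusted p = 0.024), and these were the 2 receptors called, against 0.936% of all genes. No receptor was called in LacQ140_A against WT at 6 months (0.91% of all genes), where 3 receptors and 12.5% of all genes passed at an unadjusted p under 0.05, and DESeq2 called none of the 10. Htr1b, at 65.3 ± 12.0 CPM (SD, n = 10) in WT, had a log2 fold change of -0.39 ± 0.11 (adjusted p = 0.051) there, and 4 of 10 alternatives called it, at -0.42 to -0.38 with adjusted p from 0.019 to 0.077 over the alternatives. Htr4 was 5.36 ± 0.663 CPM (SD, n = 10) in WT, 3.72 ± 0.847 CPM (SD, n = 10) in WT + IPTG, 3.06 ± 0.796 CPM (SD, n = 10) in LacQ140, 4.15 ± 0.66 CPM (SD, n = 10) in LacQ140_A and 3.25 ± 0.89 CPM (SD, n = 10) in LacQ140_2M, with WT the highest. Htr2a was 17.2 ± 3.33 CPM (SD, n = 10), 22.6 ± 5.14 CPM (SD, n = 10), 19.5 ± 6.09 CPM (SD, n = 10), 17.9 ± 3.04 CPM (SD, n = 10) and 24.8 ± 5.16 CPM (SD, n = 10) in the same groups. WT had the lowest mean, and the SDs of WT, LacQ140_A and LacQ140 overlapped. Late and early withdrawal were compared in 12-month striatum. LacQ140_8M against LacQ140_2M called none of the 10 with edgeR or DESeq2, 0 passed at an unadjusted p under 0.05, and 0.0933% of all genes were called. The largest of the 10 values there was 0.12 ± 0.17 (adjusted p = 0.88) for Htr4.

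In cortex no receptor was called in any lowering arm against LacQ140. At 6 months 0.00834% of all genes were called in LacQ140_A and 0.0% in LacQ140_2M, and 1 and 6 of the 10 receptors passed at an unadjusted p under 0.05, as did 7.47% and 9.72% of all genes. At 12 months the shares of all genes were 0.0435%, 0.0841% and 0.0% in LacQ140_A, LacQ140_2M and LacQ140_8M, and 3, 0 and 0 receptors passed unadjusted, as did 13.2%, 5.51% and 2.83% of all genes. DESeq2 called none of the 10 in these comparisons. For LacQ140_2M at 6 months and LacQ140_8M at 12 months, where no gene was called by edgeR, 3498 and 977 genes had an unadjusted p under 0.05. The largest cortical value was 0.54 ± 0.19 (adjusted p = 0.36) for Htr4 in LacQ140_2M at 6 months, with 0.54 ± 0.21 (adjusted p = 0.39) for Htr1d.

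WT + IPTG against WT gives the effect of IPTG in mice without the mutant allele. In striatum at 6 months Htr4 was called, 1 of 10 against 0.584% of all genes. At an unadjusted p under 0.05, 6 of 10 receptors passed there, against 8.88% of all genes, and the median log2 fold change of the 10 was -0.16, next to -0.01 over all genes above 1 CPM. By log2 fold change, the other receptors that passed were Htr6 at -0.38, Chrm4 at -0.26, Htr1d at -0.25, Chrm1 at -0.16 and Htr2a at 0.39, none of them called. For Htr4 the lowest, median and highest values were 4.33, 5.14 and 6.42 CPM in WT and 2.80, 3.56 and 5.20 CPM in WT + IPTG, overlapping, with a log2 fold change of -0.53 ± 0.13 (adjusted p = 0.021). With the choroid plexus marker level as a covariate it was -0.46 and no longer called (adjusted p = 0.085), and without the 1 WT + IPTG library above 127 CPM it was -0.49 and called. At 12 months Htr4 was at 0.16 ± 0.16 (adjusted p = 0.79). Htr1b at 12 months was 90.7 ± 20.3 CPM (SD, n = 10) in WT + IPTG and 66.96 ± 15.1 CPM (SD, n = 9) in WT. The log2 fold change of 0.44 ± 0.14 (adjusted p = 0.14) was not called. No receptor was called for IPTG in 12-month striatum (0.218% of all genes), 6-month cortex (0.609%) or 12-month cortex (0.0%), by edgeR or DESeq2, and 1, 1 and 3 passed at an unadjusted p under 0.05, next to 11.4%, 11.9% and 5.80% of all genes.

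The effect of mutant Htt in striatum was also fitted by sex, a test chosen after the data were seen. At 6 months females had 3 receptors called and males 1, against 6.07% and 3.06% of all genes. Htr2c rose by 0.42 ± 0.11 (adjusted p = 0.014) in females and 0.70 ± 0.12 (adjusted p = 5.1e-05) in males. Htr1b was at -0.80 ± 0.15 (adjusted p = 3.5e-04) in females and -0.49 ± 0.15 (adjusted p = 0.058) in males, and Htr4 at -0.59 ± 0.17 (adjusted p = 0.02) and 0.07 ± 0.17 (adjusted p = 0.98), so that neither was called in males. The difference of Htr1b between the sexes was 0.31 ± 0.22 (adjusted p = 1.0) and was not called. At 12 months Htr2c rose by 0.77 ± 0.12 (adjusted p = 1.3e-06) in females and 0.82 ± 0.11 (adjusted p = 5.1e-08) in males, and Htr1b stood at -1.52 ± 0.19 (adjusted p = 8.9e-09) and -1.08 ± 0.17 (adjusted p = 3.3e-06). Htr4 was at -1.23 ± 0.22 (adjusted p = 4.5e-05) in females and -0.53 ± 0.22 (adjusted p = 0.14) in males. The difference between the sexes was 0.70 ± 0.31 (adjusted p = 0.48) for Htr4 at 12 months and 0.66 ± 0.24 (adjusted p = 1.0) at 6 months. No receptor was called for the sex difference by edgeR, 1 passed at an unadjusted p under 0.05 at each age (3.87% and 9.29% of all genes), and DESeq2 was not run on it, with 0.0% and 0.00565% of all genes called at 6 and 12 months.

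Some receptors also varied together between libraries of a group. After the group means were removed, r over the 45 pairs of receptors ran from -0.419 to 0.883 at 6 months, with a median of 0.117 and 14 pairs below 0, and from -0.523 to 0.752 at 12 months, with a median of 0.231 and 10 pairs below 0. The lowest pairs were Chrm4 and Htr2c at 6 months and Chrm1 and Chrm2 at 12 months. Among the higher ones, log2 CPM of Chrm1 and Chrm4 correlated at r = 0.883 over 50 striatal libraries at 6 months and r = 0.67 over 57 at 12 months. Htr1b and Htr2a were at 0.705 and 0.569, Htr1b and Chrm4 at 0.348 and 0.752, and Htr1b and Htr4 at 0.452 and 0.557. Htr1b and Htr2c, which moved in opposite directions between groups, were at 0.196 and 0.42 within groups. Libraries share dissection, depth and length bias, and Htr1b correlated with the transcript-length slope at r = 0.642 in 12-month striatum. With that slope as a covariate the log2 fold change of Htr1b in LacQ140 at 12 months was -1.23.

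For Htr1b and Htr2c, the receptors called in striatum at both ages, the genes with the most similar levels over all 107 striatal libraries, centred within age, were sought among 11545 genes with at least 5 CPM on average. For Htr1b these were Homer1 (r = 0.923), a synaptic scaffold that is also an activity-regulated gene, Pptc7 (r = 0.9) and Osbpl8 (r = 0.886). Homer1 was lower in LacQ140 striatum, with log2 fold changes of -0.73 ± 0.08 and -0.93 ± 0.10 at 6 and 12 months. For Htr2c they were Slc6a15 (r = 0.879), an amino acid transporter, Gprasp2 (r = 0.873) and Cd200 (r = 0.848). Slc6a15 was higher in LacQ140 by 0.34 ± 0.05 and 0.36 ± 0.06, Gprasp2, of the family of receptor-associated sorting proteins, by 0.34 ± 0.06 and 0.60 ± 0.06, and Cd200 by 0.28 ± 0.06 and 0.55 ± 0.05. The group differences themselves are part of these correlations, which describe the libraries.

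Signalling genes downstream of the receptors were counted from lists, of which none had a higher call in LacQ140 striatum. Of 18 genes of the Gq cascade, 5 were called lower at 6 months and 11 at 12 months, with median log2 fold changes of -0.17 and -0.35 next to -0.01 and 0.01 over all genes above 1 CPM. Of all genes tested in striatum, 3.96% were called lower and 3.97% higher at 6 months, and 4.86% lower and 4.58% higher at 12 months. These shares are the background for this and the following striatal lists. With filterByExpr 1512 of 18841 genes were lower and 1474 higher at 6 months, and 1720 of 18395 lower and 1655 higher at 12 months. At 12 months these included Rgs4, which turns off Gi and Gq signals, at -0.85 ± 0.06, Homer1 at -0.93 ± 0.10, the potassium channel gene Kcnq5, whose current muscarinic receptors close, at -0.50 ± 0.06, and the kinase gene Prkcb at -0.60 ± 0.08. Of 23 genes of the Gi, Gs and Golf cascade, 5 and 7 were called lower, with medians of -0.08 and -0.14. The striatal adenylyl cyclase gene Adcy5 was at -0.91 ± 0.06, Rgs9 at -0.74 ± 0.06, the phosphatase inhibitor gene Ppp1r1b at -0.78 ± 0.07 and the G protein gene Gnb5 at -0.52 ± 0.05 at 12 months. In cortex the Gq list had 1 call at each age, Homer1, at -0.54 ± 0.12 and -0.43 ± 0.09, and the other list had none by edgeR. Of all genes in cortex 0.881% were called at 6 months and 0.0899% at 12 months.

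Of the 9 other receptor genes of these families, 1 was called in striatum at 6 months, the Gi-coupled Htr5a, which was higher in LacQ140 by 0.39 ± 0.08 (adjusted p = 1.8e-04), and 1 at 12 months, Chrm5, which was lower, at -0.81 ± 0.27 (adjusted p = 0.027), and was 0.616 ± 0.168 CPM (SD, n = 10) in WT + IPTG. With 7.93% and 9.44% of all genes called, 1 of 9 is near the background. The list medians were 0.19 and 0.23. Of 6 acetylcholine genes none was called at 6 months by edgeR and 1 at 12 months, the cholinesterase gene Bche, higher by 0.49 ± 0.11 (adjusted p = 6.1e-04). Of 9 serotonin genes and receptor partners, 2 were lower at 6 months, the serotonin-synthesis gene Tph2 at -0.998 ± 0.19 (adjusted p = 1.1e-04) and S100a10, whose protein binds Htr1b and Htr4, at -0.50 ± 0.10 (adjusted p = 1.8e-04). S100a10 was lower again at 12 months, at -0.77 ± 0.09 (adjusted p = 6.1e-11). Tph2 is known as a gene of raphe neurons, whose cell bodies lie outside the striatum.

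Markers of the cells that carry these receptors were counted in the same comparison. Of 12 markers shared by spiny projection neurons, 8 were called lower at 6 months and 12 at 12 months, with a median of -0.71 at 12 months, and their summed level ran from 11429 to 14963 CPM in WT + IPTG and 6658 to 8174 CPM in LacQ140. Of 7 indirect-pathway markers 5 were lower and 1 higher at 6 months and 5 lower and 0 higher at 12 months, Penk at -1.30 ± 0.08 and Adora2a at -1.06 ± 0.06 at 12 months. Of 8 direct-pathway markers 2 were lower and 3 higher at 6 months, with Drd1 at -0.39 ± 0.05, Sfxn1 at -0.27 ± 0.05, Eya1 at 0.55 ± 0.09 and Isl1 at 0.29 ± 0.06. At 12 months 2 were lower and 1 higher, with Drd1 at -0.82 ± 0.08 and Eya1 at 0.31 ± 0.08. Cholinergic interneuron markers had no call at 12 months by edgeR of 10 and 1 at 6 months, Isl1, which was higher. The defining markers Chat, at -0.23 ± 0.08 (adjusted p = 0.029), and Slc18a3, at -0.23 ± 0.08 (adjusted p = 0.027), passed the p threshold at 12 months but not the 1.2-fold bound. For the whole cholinergic list the summed level ran from 211 to 249 CPM in WT + IPTG and 182 to 220.9 CPM in LacQ140. In cortex none of the 10 cholinergic or 12 shared spiny neuron markers was called by edgeR at either age, next to 0.881% and 0.0899% of all genes. In striatum cortical excitatory neuron markers had median log2 fold changes of -0.55 at 6 months and 0.87 at 12 months, and at 12 months they summed to 112 to 229.8 CPM in WT + IPTG and 128 to 445 CPM in LacQ140. In 12-month striatum the calls were 0 higher and 1 lower of 8 other interneuron markers, 3 higher and 0 lower of 10 cortical excitatory neuron markers, 0 higher and 5 lower of 13 choroid plexus markers, 1 higher and 3 lower of 8 oligodendrocyte markers, 0 higher and 1 lower of 8 astrocyte markers, 0 higher and 1 lower of 8 microglia markers and 0 higher and 3 lower of 8 endothelial markers. At 6 months the calls in the same lists and order were 0 higher and 1 lower, 1 higher and 3 lower, 0 higher and 2 lower, 0 higher and 4 lower, 0 higher and 1 lower, 0 higher and 4 lower and 0 higher and 1 lower. A single call in a list of 8 is near the background. The part of these cell types in the receptor results was not tested.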

How the data were processed

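Total RNA was taken from flash-frozen tissue and sequenced as 100 bp paired-end reads. The deposited values are expected counts per gene and library, which the authors estimated from their reads. The submitters' processing notes name the GRCm38 build, and the aligner, quantifier, annotation and strand setting are not given in the sources used here. In all, 26.8% of the non-zero values were not whole (tolerance 0.001), so they were rounded before testing. Of 54532 gene identifiers, 54495 were named and placed through GENCODE vM21. Groups were taken from the labels.

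Genes with at least 1 count in a tissue and age were tested in edgeR 4.0.16 (R 4.3.3) with TMM scaling and the quasi-likelihood F-test, over all groups of a tissue and age and with group as the only term. P-values were adjusted by Benjamini-Hochberg over all genes. A gene was called at an adjusted p under 0.05 and a change of at least 1.2-fold in either direction (a rise of 20% or a fall of 16.7%). The authors used DESeq2 with the same p threshold and a bound of 20% in either direction. SE is the log2 fold change divided by the root of F, and 95% intervals are normal ones from it. The tissue difference and the effect of mutant Htt by tissue were fitted per age with the mouse as a block, since both tissues come from the same mice. On simulated counts with 200 changed genes the LacQ140 against WT + IPTG fits recovered 200 and 200 in striatum (6 and 12 months, 34904 and 34439 genes) and 194 and 165 in cortex (35115 and 33745 genes). False calls were 12 and 14 in striatum and 8 and 4 in cortex. The changed genes were drawn above a count floor and changed by more than the fold bound. The recovery therefore does not apply to low-level receptors such as Htr4 or to smaller changes. No 2 libraries of a group were alike within sampling noise.

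The receptors, gene lists and marker lists were chosen with earlier results of these data known. All 10 receptors are given, list members are counted with up to 4 called genes of the smallest p named, and the 3 genes most like Htr1b and Htr2c are named. Leaving out libraries above 127 CPM of choroid plexus markers, the fit by sex and the slope covariate in the fit over both tissues were chosen after the data were seen. Alternatives were DESeq2 1.42.0, filterByExpr, DESeq2 size factors, no fold bound, covariates (sex, choroid plexus markers, transcript-length slope), a replicate block, only the groups compared, and each LacQ140 and WT + IPTG library left out in turn.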

Additional observations from a re-analysis of the deposited data

Results flagged for a closer look

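The effect of mutant Htt differed between striatum and cortex for 3 receptors at 12 months and 1 at 6 months, by a test of the difference itself (edgeR, adjusted over all genes). The log2 difference, striatum minus cortex, was -0.94 for Chrm4, -0.82 for Htr1b and 0.82 for Htr2c at 12 months, and -0.41 for Chrm4 at 6 months. The 12-month cortex libraries differed from the striatal ones in transcript-length slope. With that slope as a covariate in each tissue the 12-month values were -0.76, -0.85 and 0.76, all called. Without the libraries high in choroid plexus markers they were -0.89, -0.73 and 0.94, over fewer mice, and of these Htr2c was called. The Chrm4 difference at 6 months was called in 3 of 5 alternatives. It was not called in the fit without the mouse or without the libraries high in choroid plexus markers. Chrm4 itself was called in neither tissue at 6 months.

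Single libraries stood far from the rest of their group in 9 of 220 tests of a receptor in a group, and chance alone flags about 1 in 20. In 6-month striatum, Htr2a reached 25.9 CPM in WT female 5, with the next library at 19.1 CPM. In 12-month striatum, Htr1b reached 102.0 CPM in WT male 3 (next 77.9 CPM), and Chrm3 was lowest at 6.59 CPM in LacQ140_8M male 2 (next 8.35 CPM). In 6-month cortex, WT female 3 was highest in 3 receptors, with Htr1b at 10.8 CPM (next 7.26 CPM), Htr2c at 53.0 CPM (next 39.02 CPM) and Htr4 at 2.77 CPM (next 1.90 CPM). The transcript-length slope of that library, 0.589, was the highest of the 6-month cortex, and its choroid plexus markers summed to 24.0 CPM. In 12-month cortex, Htr6 reached 2.53 CPM in LacQ140 female 1 (next 1.82 CPM), whose choroid plexus markers summed to 769 CPM. Chrm3 reached 42.9 CPM in LacQ140_8M female 5 (next 32.7 CPM) and Htr2a 25.4 CPM in LacQ140_8M male 3 (next 21.1 CPM).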

How the results depend on the processing

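No called fold change changed sign under an alternative, and the 2 and 6 calls in LacQ140 against WT + IPTG striatum stood under each of them, with 3 at 6 months under DESeq2, the slope covariate, no fold bound and only the groups compared, where Chrm2 was added. Leaving out 1 library kept every one of these calls: the log2 fold change ran from -0.70 to -0.58 for Htr1b and from 0.52 to 0.61 for Htr2c at 6 months, and from -1.38 to -1.26 for Htr1b, 0.76 to 0.85 for Htr2c, -0.74 to -0.66 for Chrm4, -1.02 to -0.84 for Htr4, -0.71 to -0.55 for Htr2a and -0.33 to -0.27 for Chrm1 at 12 months. Chrm2 at 6 months was called without LacQ140 F2 (-0.27), LacQ140 M1 (-0.30), WT + IPTG F3 (-0.28), WT + IPTG M3 (-0.28) or WT + IPTG M4 (-0.27), and Htr6 without WT + IPTG F4 (0.34). Numbers of receptors called moved by over 1.5 times in the following, and the cause was not tested. For the effect in striatum minus that in cortex at 6 months it was 2 with filterByExpr, which added Htr2c, 2 with the slope covariate (again Htr2c), 0 with no replicate block (the mouse) and 0 without the libraries high in choroid plexus markers, against 1, and at 12 months 1 without those libraries (Htr2c), against 3, over fewer mice. In LacQ140 against WT + IPTG cortex it was 1 with the slope covariate and 1 with only the groups compared at 6 months (Htr1b), and 1 and 1 at 12 months (Htr2a and Htr1b), against 0. Over all genes these fits called 562 and 524 at 6 months, against 317, and 153 and 441 at 12 months, against 31. For LacQ140_A against LacQ140 in 12-month cortex it was 1 with only the groups compared (Chrm1, -0.32), against 0. Over the alternatives the log2 fold change of Chrm1 there ran from -0.34 to -0.02. The number of all genes called ran from 0 to 1896, against 15. In 6-month striatum IPTG gave 0 with the choroid plexus covariate, against 1. LacQ140_2M against LacQ140 gave 2 with the slope covariate and 2 with only the groups compared, where Htr2c was added, against 1. LacQ140_A against LacQ140 gave 2 with filterByExpr, 2 with the slope covariate and 2 with DESeq2, where Htr4 was added, and 3 with only the groups compared, where Chrm3 was added too, against 1. LacQ140_2M against WT gave 1 with the slope covariate, without Htr2a, against 2. LacQ140_A against WT gave 1 with filterByExpr, 1 with the choroid plexus covariate and 1 without the libraries high in choroid plexus markers (Htr1b each time), and 2 with the slope covariate, against 0. At 12 months LacQ140_A against LacQ140 in striatum gave 2 with filterByExpr and 2 with the slope covariate, where Htr1b was added, against 1. The labelled sex and number do not pair mice of different groups (mean correlation of their deviations from -0.0581 to 0.0565 over the tissues and ages), and the replicate block changed no call of a receptor, with 2 and 6 called in LacQ140 against WT + IPTG striatum and Htr1b at -1.34 at 12 months. Htr4 in cortex, Htr1d in cortex and Chrm5 lay near or under 1 CPM, which limits the precision of their fold changes.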
